A study of Mus musculus with 54 samples.

Results

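Mouse blood stem and progenitor cells were recovered 1 to 3 days or 5 days after transplantation and sequenced one cell at a time, and the earlier cells were compared with the day 5 cells. The cells were those that the deposited annotation marked as transplanted (Tx, phenotype GFPP) and predicted to be stem cells (tHSC) or multipotent progenitors (tMPP1 to tMPP5). This gave 225 early cells in 8 libraries and 329 day 5 cells in 7 libraries, out of 2301 annotated cells in the series. Library L87 (day 1) held 2 such cells and was not used, which left 223 early cells in 7 libraries. The early libraries were L83 and L84 (day 1), L79, L85 and L89 (day 3), and L80 and L88, in which cells of days 1 and 3 were pooled. The day 5 libraries were L66, L68, L69, L70, L71, L72 and L86. All came from C57BL/6 mice labelled as 8-10 weeks old, and neither the transplanted population nor the animals behind each library were given. The p-values therefore measure the spread between libraries, which may be partly technical.

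After transplantation into a recipient, haematopoietic stem cells lodge in the bone marrow or the spleen and leave their resting state to divide. Multipotent progenitors arise from stem cells, have little lasting self-renewal, and build most new blood in the first weeks. Entry into growth is generally accompanied by more ribosome production and more synthesis of nucleotides and polyamines, while genes of the resting stem cell state, such as Procr, which encodes a surface receptor used to isolate stem cells, decline.

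The libraries differed in ways that ran along with the collection day. All 7 early libraries used were labelled as bone marrow and spleen. Of the day 5 libraries, L66, L68, L69 and L70 were labelled spleen, L72 bone marrow, and L71 and L86 both organs. L86 was also the only day 5 library whose number falls among those of the early libraries. Counts per library ranged from 1020605 to 18855479, and single cells carried 20521 to 729042 counts (median 199702). The median of genes detected per cell was 4082.5 to 5784 in the early libraries and 5385 (L86) to 7115.5 on day 5. The mean of these medians was 4879 ± 517 (SD, n = 7) early and 6500 ± 606 (SD, n = 7) on day 5 (exact permutation test over libraries, two-sided, p = 0.00117). Median counts per cell were lower early as well (mean 127349 against 243797, exact permutation p = 0.0221). L66 stood apart, since it had 6 cells of which 5 were tMPP3. In sums over a library, fewer cells of a type and less RNA per cell cannot be told apart.

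Early libraries held a larger share of the predicted types tHSC and tMPP1. The tHSC share was 3.57% to 14.3% early, with a median of 8.33%, and 0% to 4.17% on day 5. These shares rest on few cells, 1 (L80 and L83) to 6 (L85) tHSC per early library and 0 to 2 per day 5 library. Only L80 (3.57%) fell within the day 5 range, below L69 (4.17%). The mean difference was 7.74 percentage points (exact permutation p = 0.00117, or 0.0035 after Benjamini-Hochberg adjustment for the 6 types). The tMPP1 share was 33.3% to 50% early and 0% (L66) to 26.4% (L86) on day 5, so that the groups did not overlap. The difference was 23.1 points (exact permutation p = 0.000583, the smallest these 3432 regroupings can give, adjusted p = 0.0035). The shares of tMPP2 (difference -9.02 points), tMPP3 (-11.6), tMPP4 (-1.29) and tMPP5 (-8.96) did not pass the test (adjusted p from 0.315 to 0.731). Without L66, whose tMPP2 share was 0%, the tMPP2 difference was -16.5 points and passed (adjusted p = 0.0315). The tHSC and tMPP1 differences did not pass between libraries of both organs, 7 early against 2 on day 5 (7.61 and 18.2 points, both adjusted p = 0.167). With 36 regroupings the smallest p there is 0.0278, which tMPP1 reached, and 1 type at that p cannot pass after adjustment for 6 types. Predicted types were taken from the annotation, whose maker used the same counts.

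**Figure D1:**
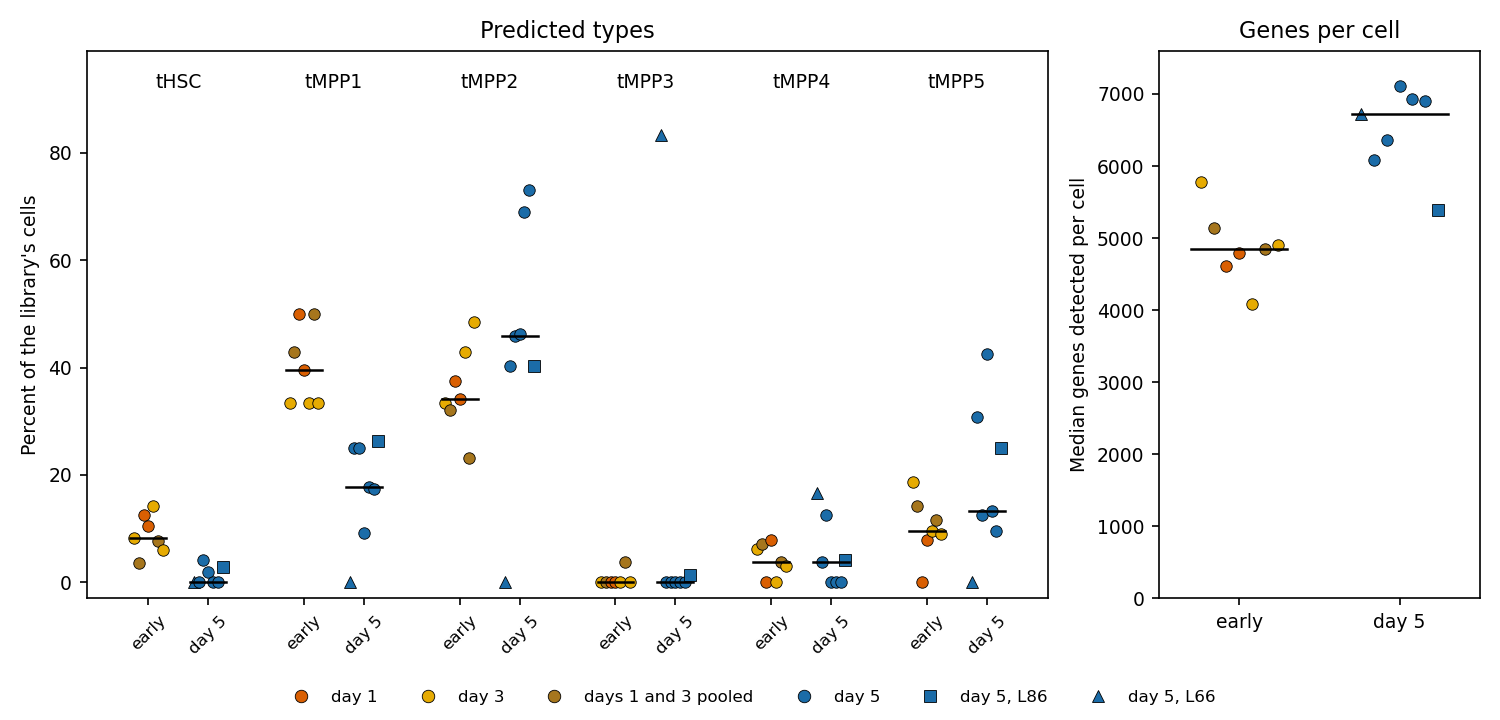
Left, share of each predicted type among the analysed cells of a library (percent); right, the library median of genes detected per cell. Each point is 1 library, coloured by collection day, and bars are medians over 7 libraries; the tMPP1 shares of the early libraries (33.3% to 50%) all lie above those of day 5 (0% to 26.4%).

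Counts were summed per library and 11002 genes were tested. 59 genes (0.536% of those tested) passed an adjusted p under 0.05 in edgeR's quasi-likelihood test, 34 higher early (0.309%) and 25 lower early (0.227%). Values of 100 genes (0.909%) did not overlap between the 7 early and 7 day 5 libraries, and 36 of the called genes were among them. The biological coefficient of variation was 0.613, and 1507 genes had an unadjusted p under 0.05, 711 higher and 796 lower. With DESeq2's size factors in edgeR the split was 34 higher and 13 lower, with library totals alone 54 and 14 (median change of all genes 0.12, against 0.01), and with cells thinned to equal counts 34 and 12. The number of calls depended on single libraries: it was 192 without L66, 162 without L86, 9 without L68 and 14 without L80. Leaving out L69, L70, L71, L72, L79, L83, L84, L85, L88 or L89 gave 24, 11, 13, 19, 39, 21, 13, 48, 48 and 82 calls. 9 genes, all higher early, stayed called whichever library was left out: Pdzk1ip1, Aldh2, Arpc1b, Pigr, Nkx2-1, Olfr856-ps1, 4930444P10Rik, 4930470H14Rik and Gm17644.

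**Figure D2:**
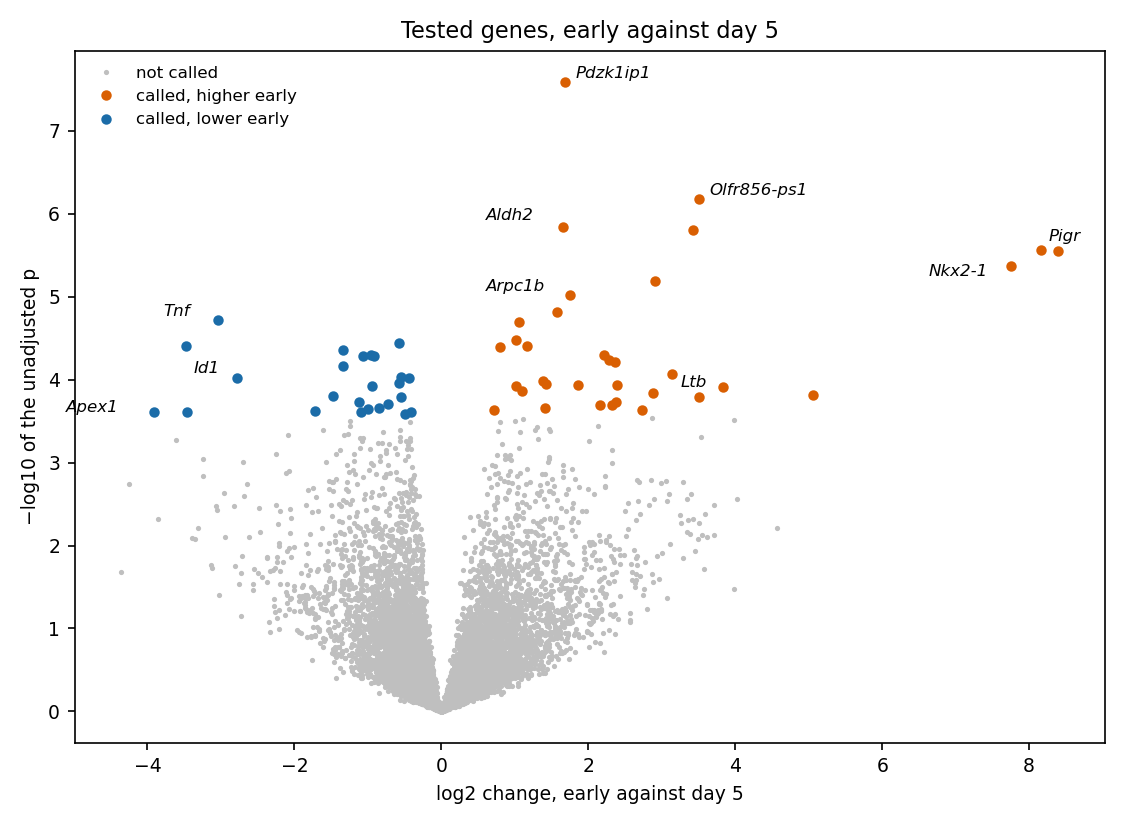
Each point is 1 of the 11002 tested genes, with its log2 change between early and day 5 libraries (positive is higher early) against the −log10 of its unadjusted p in edgeR's quasi-likelihood test. The 34 called genes higher early reach a log2 change of 8.39, the 25 called lower early reach -3.92, and Pdzk1ip1 has the smallest p.

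Levels are given as CPM, which is a gene's count per 1000000 summed counts of its library after TMM scaling. Sums over a list are per 1000000 counts without TMM scaling, and cover all its genes in the deposited counts, tested or not. Log2 changes are early against day 5, with their standard errors.

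Pdzk1ip1 had the smallest p of all tested genes. It encodes a small membrane protein (MAP17) and lies on chromosome 4 (GRCm38, 115088708 to 115093899, plus strand). Its level was 158 to 241 CPM early, with a median of 188, and 45.6 to 83.1 CPM on day 5, with a median of 53.6. Every early library lay above every day 5 library, and L86, at 63.4 CPM, lay among the other day 5 libraries. The difference on the log2 scale was 1.68 ± 0.19 (adjusted p = 0.000285). After each cell was thinned to 20000 counts, Pdzk1ip1 was detected in 70.3% of early and 44.8% of day 5 cells (means over libraries, 85.3% and 75.9% without thinning). In tMPP1 cells alone the change was 0.89 and not called (adjusted p = 0.409), and in tMPP2 cells alone it was 1.55 and called (adjusted p = 0.00642).

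Procr was 95.9 to 222 CPM early, with a median of 127, and 52.1 to 87.8 CPM on day 5, with a median of 69.3. The groups did not overlap, with L66 the highest on day 5 and L83 (day 1) the lowest early. Its log2 change was 1.17 ± 0.23 (adjusted p = 0.0259). The call was lost without any 1 of L68, L69, L70, L71, L72, L80 and L84, with the highest adjusted p of 0.0763 without L71. Procr was not called in tMPP1 cells alone (0.72, adjusted p = 0.516) or in tMPP2 cells alone (1.34, adjusted p = 0.0625). Aldh2, a mitochondrial aldehyde dehydrogenase that clears acetaldehyde and related toxic aldehydes (chromosome 5, 121566027 to 121593824, minus strand), was 168 to 506 CPM early, with a median of 229.9, and 60.4 to 124 on day 5, with a median of 78.3. L79 (day 3) was the highest, L86 was the highest of day 5, and the groups did not overlap. The log2 change was 1.66 ± 0.25 (adjusted p = 0.00436).

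Other regulators of the stem cell state gave changes of the same sign that did not pass. Hlf, a transcription factor of stem cells, was 97.2 to 238 CPM early and 15.2 to 133 CPM on day 5 (log2 change 1.10 ± 0.33, adjusted p = 0.121). Its groups overlapped through L68, at 133 CPM. Mecom, a transcription factor needed for stem cell maintenance, had a log2 change of 0.72 ± 0.41 (adjusted p = 0.455), and Fgd5, a marker of stem cells, 0.54 ± 0.55 (adjusted p = 0.724). Of the 30 tested genes in a list of stem cell identity genes, Procr and Ltb were called higher and none lower. Over all tested genes, 0.309% were called higher. 19 of the 30 changes were above 0, with a median of 0.33, against 5584 of all 11002 tested genes (50.8%) and a median of 0.01. Members with the opposite sign included Slamf1 (-1.26, adjusted p = 0.245), a receptor on stem cells, and Vwf (-1.53, adjusted p = 0.284), a platelet glycoprotein of megakaryocyte-primed stem cells.

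**Figure D3:**
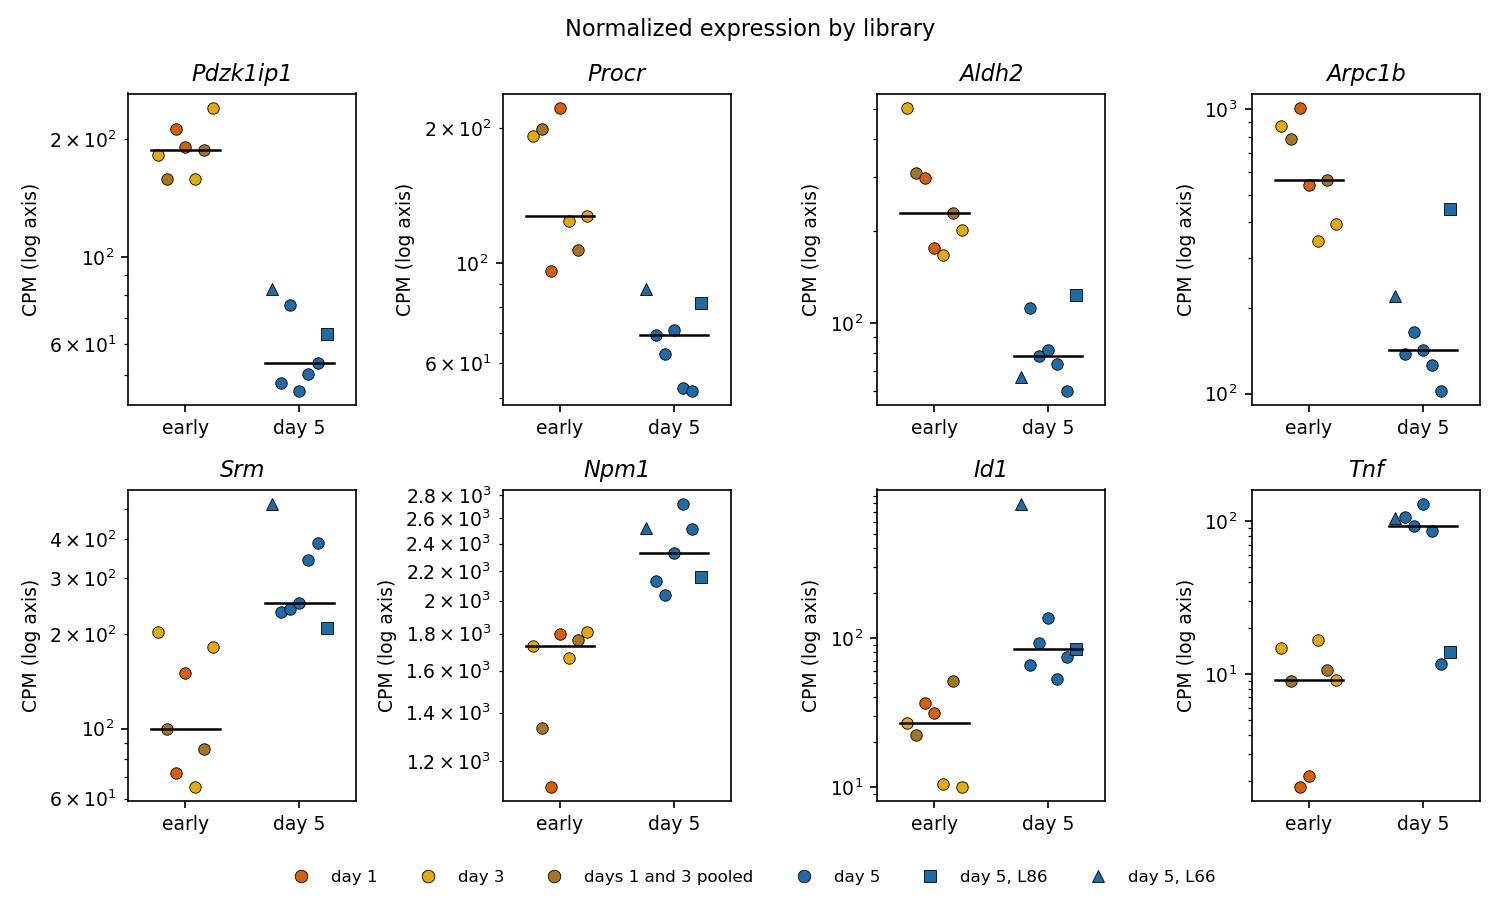
CPM (log axis) of 8 called genes in the 7 early and 7 day 5 libraries, 1 point per library, coloured by collection day, with medians as bars. Pdzk1ip1, Procr and Aldh2 are higher in every early library, Srm, Npm1 and Id1 lower in every early library, and L86 (square) lies inside the early range for Arpc1b and Tnf.

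A pair of neighbouring genes of the tumour necrosis factor family had opposite changes. Ltb encodes lymphotoxin beta, a membrane-bound ligand that anchors lymphotoxin alpha, and Tnf encodes the inflammatory cytokine TNF. Both lie on chromosome 17 of GRCm38, Ltb at 35194439 to 35196320 (plus strand) and Tnf at 35199381 to 35202007 (minus strand), with 3060 bases between them. Ltb was 12.4 to 173 CPM early, with a median of 89.4, and 1.17 to 27.3 CPM on day 5, with a median of 4.86. The groups overlapped: L84, L85 and L89 (12.4, 16 and 24.4 CPM) lay below L86, and L84 also below L68 (13.4 CPM). For Ltb the log2 change was 3.14 ± 0.64 (adjusted p = 0.0361), and the call was lost without any 1 of L68, L69, L70, L71, L72, L79, L80, L83 and L88 (adjusted p up to 0.0976, without L71). Tnf was 1.83 to 16.6 CPM early, with a median of 9.17, and 11.5 to 130.1 CPM on day 5, with a median of 93.3. The 4 spleen libraries and L71 had 85.9 to 130.1 CPM, whereas L72 (bone marrow, 11.5 CPM) and L86 (13.9 CPM) lay within the early range. For Tnf the log2 change was -3.04 ± 0.55 (adjusted p = 0.0186), and it was -2.0 and not called when the spleen libraries were left out (adjusted p = 0.362). Without L68, L70 or L80 alone the call was lost too (adjusted p up to 0.0557, without L68).

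The bases before the start of these genes are shown because the genes sit side by side on opposite strands and moved in opposite directions. They come from the RefSeq promoter table of GRCm38.p6 and are written 5′ to 3′ on the gene's own strand, with the TATA box letters TATAAA in capitals. The stretch for Ltb is chr17:35194257-35194438 and ends where the annotated gene begins, and that for Tnf is chr17:35202008-35202257.
Ltb: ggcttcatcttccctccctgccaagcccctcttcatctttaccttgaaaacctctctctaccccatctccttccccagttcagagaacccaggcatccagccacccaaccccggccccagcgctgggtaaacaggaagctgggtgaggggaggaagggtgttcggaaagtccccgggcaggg
Tnf: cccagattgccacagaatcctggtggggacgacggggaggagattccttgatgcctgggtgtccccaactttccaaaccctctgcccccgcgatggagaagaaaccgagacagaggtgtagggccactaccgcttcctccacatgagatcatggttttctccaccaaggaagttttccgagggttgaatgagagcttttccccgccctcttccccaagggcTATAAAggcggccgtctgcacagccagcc
TATAAA was searched on both strands. It occurred once in the 250 bases before Tnf, starting 29 bases before the transcription start. It did not occur in the 182 bases shown for Ltb, a shorter stretch because it was cut where the annotated gene begins. Bases past that point, up to the RefSeq start of Ltb, were not searched. The searches therefore do not cover like positions, and the genes cannot be compared for this box. Stretches of the same position and length held it in 12.4% (Tnf) and 8.45% (Ltb) of the 32851 promoters in that table. These matches describe letters alone.

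Id1, an inhibitor of basic helix-loop-helix factors that is induced by BMP signals, was 10.1 to 51.1 CPM early, with a median of 26.9, and 52.9 to 796 CPM on day 5, with a median of 83.6. L66 had 796 CPM and the other day 5 libraries 52.9 to 136 CPM, and no early library reached the lowest day 5 value. A log2 change of -2.78 ± 0.58 followed (adjusted p = 0.0361), or -1.67 without L66 (adjusted p = 0.0174), and the call was lost without any 1 of L68, L70, L79, L80, L83, L84 and L85 (adjusted p up to 0.0824).

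Immediate early genes, which are switched on within minutes by growth factors, stress or tissue handling, were tested as a list of 18 genes. None was called, but all 18 log2 changes were below 0, with a median of -0.98, and 9 had an unadjusted p under 0.05. Of all tested genes, 7.24% were lower early at that p. Early libraries had 751 to 3057 CPM (median 1399.7) summed over all 22 listed genes, tested or not. Day 5 libraries had 861 to 5439 CPM (median 3038). The spleen libraries had 3038 to 5439 CPM and L71 2803, while L72 (1011) and L86 (861) were near the lowest early values. Nr4a1, a nuclear receptor of this class, had a median of 28.3 CPM early and 182 CPM on day 5, where L72 had 25.3 and L86 9.57 (log2 change -2.05, adjusted p = 0.148). Atf3, a stress-induced factor, was 0 to 15 CPM early and 0.168 (L72) to 204 CPM (L69) on day 5 (log2 change -4.25 ± 1.19, adjusted p = 0.102). Without the spleen libraries the list median was -0.00. Organ label and collection day cannot be told apart for these genes.

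Some genes of biosynthesis and ribosome production were called lower early. In a list of 25 ribosome biogenesis and MYC target genes, 3 were called lower and none higher, 22 log2 changes were below 0, and the median was -0.33. Of all tested genes, 0.227% were called lower and 50.8% had changes above 0. Srm, spermidine synthase of polyamine synthesis (chromosome 4, 148591503 to 148594993, plus strand), was 65.5 to 202 CPM early and 209 to 519 CPM on day 5. Its groups did not overlap, and L79 (202 CPM) and L86 (209 CPM) were the nearest pair. Its log2 change was -1.34 ± 0.27 (adjusted p = 0.03).

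Cad, the enzyme that starts pyrimidine synthesis, was 17.4 to 44.0 CPM early, with a median of 42.9, and 49.5 to 107 CPM on day 5, with a median of 92.5. L83 was far below the other early libraries, L86 was the lowest of day 5, and the groups did not overlap. Its log2 change was -1.1 ± 0.25 (adjusted p = 0.0468). Npm1, nucleophosmin of the nucleolus, was 1106 to 1807 CPM early and 2034 to 2725 CPM on day 5, again without overlap. Its log2 change was -0.55 ± 0.11 (adjusted p = 0.0361), a value made uncertain by near-identical processed copies in the genome. None of the 3 was called after cells were thinned to equal counts (Srm adjusted p = 0.0664, Cad 0.0843, Npm1 0.132), with log2 changes of -1.09, -0.97 and -0.43. In single predicted types Srm was -0.12 in tMPP1 cells (adjusted p = 0.969) and -1.35 in tMPP2 cells (adjusted p = 0.0466), and Cad was -0.83 (adjusted p = 0.826) and -0.24 (adjusted p = 0.809). Leaving out any 1 of L68, L70, L71, L72, L80 and L84 also ended each of the 3 calls, as did leaving out L83 or L88 for Srm and L69, L79, L83, L85, L88 or L89 for Cad (adjusted p up to 0.0813 for Srm, 0.136 for Cad and 0.105 for Npm1, each without L71).

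All 72 tested ribosomal protein genes, a set chosen after its values were seen, had log2 changes below 0, with a median of -0.29. Of these, 54 had an unadjusted p under 0.05, whereas 7.24% of all tested genes were lower early at that p. The 72 genes together made up 15.2% to 21.6% of counts early (median 18.5%) and 18.97% to 21.3% on day 5 (median 20.9%), so the groups overlapped. Their median was -0.58 with day 1 libraries alone (-0.13 over all tested genes), -0.14 with day 3 libraries alone (-0.03 over all) and -0.20 after cells were thinned to equal counts (0.00 over all). Many of these genes have near-identical copies, so single values are uncertain. Gnb2l1, the older symbol of a scaffold protein of the small ribosomal subunit, was 1294 to 1892 CPM early and 1774 (L86) to 2618 CPM on day 5 (log2 change -0.58 ± 0.11, adjusted p = 0.0259). It was not called after thinning (adjusted p = 0.0503) or without any 1 of L68, L69, L70, L71, L80 and L84 (adjusted p up to 0.0763). Against L86 alone its log2 change was -0.21.

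Among 27 genes of oxidative phosphorylation, 26 had log2 changes below 0, with a median of -0.28. Uqcrq, a subunit of respiratory complex III, was the only one called (0.227% of all tested genes were called lower). It was 452 to 560 CPM early and 613 to 945 CPM on day 5, with L86 the lowest and L66 the highest of day 5 and no overlap. Its log2 change was -0.55 ± 0.12 (adjusted p = 0.0412), and it was not called after thinning (adjusted p = 0.0843) or without any 1 of 12 libraries, L66 and L86 being the exceptions. None of 29 replication genes (median -0.23) and none of 28 mitosis genes (median -0.06) was called in either direction. Mki67, a marker of cycling cells, was 78.9 to 485 CPM early and 150 to 325 CPM on day 5 (log2 change -0.14, adjusted p = 0.896). Glycolysis (0 of 19 called, median -0.12) and fatty acid oxidation (0 of 16, median 0.00) had medians nearer to that of all genes.

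**Figure D4:**
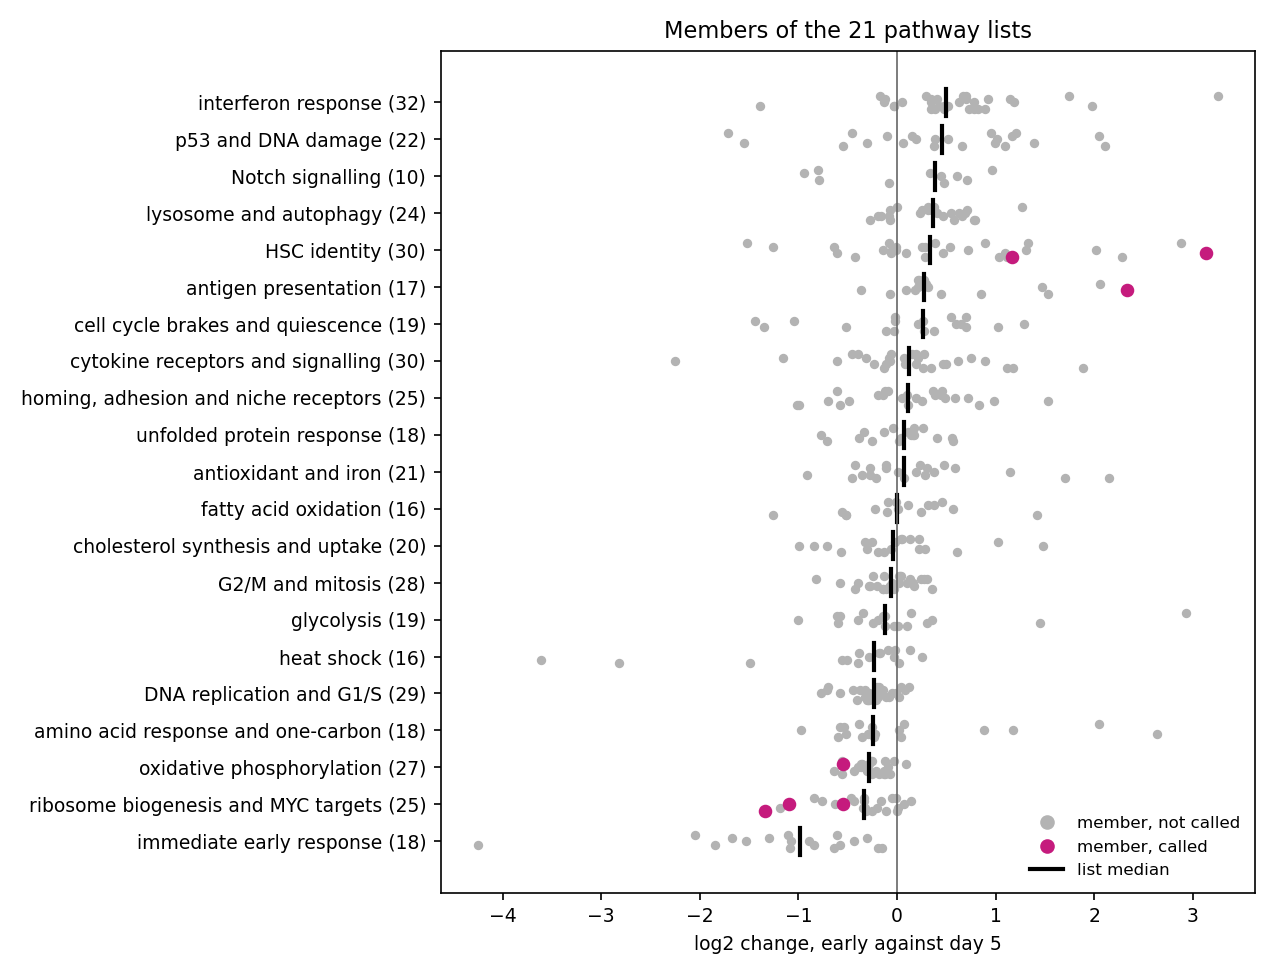
Log2 changes, early against day 5, of the tested members of 21 pathway lists (number tested in brackets), 1 grey point per gene, with called members in colour and the list median as a black bar. Medians run from -0.98 (immediate early response) to 0.50 (interferon response), and 7 memberships in 4 lists were called.

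Trim28, a corepressor that silences retroelements, was 157 to 249 CPM early and 186 to 438 CPM on day 5 (log2 change -0.91 ± 0.18, adjusted p = 0.0262). L86 (186 CPM) lay within the early range and the other 6 day 5 libraries were at 309.8 CPM or more. Cdk2ap1, a cyclin-dependent kinase 2 associated protein and subunit of the NuRD complex, had a like pattern, with 33.7 to 81.8 CPM early, 51.7 in L86, and 142 to 199 CPM in the other day 5 libraries (log2 change -1.34 ± 0.26, adjusted p = 0.0262). Against L86 alone neither was lower early (log2 change 0.0042 for Trim28 and 0.18 for Cdk2ap1). After thinning Trim28 was -0.70 and not called (adjusted p = 0.128), and its call was also lost without any 1 of L68, L69, L70, L71, L80, L83 and L84 (adjusted p up to 0.0841). Cdk2ap1 lost its call without any 1 of L68, L70, L71, L72, L80, L83 and L84 (adjusted p up to 0.0781).

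Zmynd8, a reader of acetylated histones, was 617 to 1288 CPM early and 1302 to 2687 CPM on day 5 (log2 change -0.95 ± 0.19, adjusted p = 0.0262). Baz1a, a subunit of nucleosome remodelling complexes, was 36.7 to 84.6 CPM early and 98.4 to 164 CPM on day 5 (log2 change -1.07 ± 0.21, adjusted p = 0.0262). Neither overlapped, and L86 was the lowest day 5 library in both. Psme3, an activator of the proteasome (log2 change -1.12 ± 0.25), Zfp593 (-1.48 ± 0.32) and the deubiquitinase gene Josd1 (-1.72 ± 0.39) were called too (adjusted p from 0.0412 to 0.0468). After thinning Baz1a (adjusted p = 0.115), Psme3 (0.128) and Josd1 (0.0919) were not called. With 1 library left out at a time, calls were lost in 5 of 14 fits for Zmynd8 and 8 for Baz1a. They were lost in 10 for Psme3, 11 for Zfp593 and 11 for Josd1. With DESeq2's size factors in edgeR, Psme3 (adjusted p = 0.0551) and Zfp593 (0.0535) were not called. Apex1, a DNA repair endonuclease, was at 0 to 1.24 CPM early and 1.34 to 12.7 CPM on day 5 (log2 change -3.92 ± 0.89, adjusted p = 0.0468), a level near the floor of detection, in 2.89% of early and 15.6% of day 5 cells.

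Arpc1b, a subunit of the Arp2/3 complex that branches actin filaments (chromosome 5, 145114215 to 145130705, plus strand), was 345 to 1012 CPM early, with a median of 564, and 103 to 444 CPM on day 5, with a median of 143. L86 (444 CPM) lay within the early range, above L85 and L89, and the other day 5 libraries did not exceed 220.05 CPM. The log2 change was 1.75 ± 0.30 (adjusted p = 0.0116). It was called in tMPP1 cells alone (1.76, adjusted p = 0.0379) and in tMPP2 cells alone (1.51, adjusted p = 0.0441), but not in libraries of both organs (1.17, adjusted p = 0.955). Capg, which caps actin filaments, was 339 to 532 CPM early and 205 to 304 CPM on day 5 (log2 change 0.80 ± 0.15, adjusted p = 0.0259). Gabarapl1, an autophagosome protein (1.01 ± 0.19), the chloride channel protein gene Clic1 (1.09 ± 0.23) and Shisa5, a p53-induced gene (1.05 ± 0.19), were called as well (adjusted p from 0.0186 to 0.0393). With 1 library left out at a time, the call was lost in 6 of 14 fits for Capg, 4 for Gabarapl1, 9 for Clic1 and 3 for Shisa5. Of 24 lysosome and autophagy genes in a list that did not hold Gabarapl1, none was called (median 0.37, 17 above 0).

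1 antigen presentation gene, of the class II side, was called higher early. H2-Aa, the alpha chain of a class II molecule, was 68.7 to 451 CPM early, with a median of 159.8, and 8.59 to 92 CPM on day 5, with a median of 21.4. L66 (83.1 CPM) and L86 (92 CPM) lay within the early range, and the other day 5 libraries did not exceed 25.4 CPM. Its log2 change was 2.33 ± 0.52 (adjusted p = 0.0461), and it was not called after thinning (1.95, adjusted p = 0.0668) or without any 1 of L68, L69, L70, L71, L72, L79, L80, L83, L84, L85 and L88 (adjusted p up to 0.11). H2-Ab1, the paired beta chain, had a log2 change of 1.47 (adjusted p = 0.0609), and H2-Eb1 2.05 (adjusted p = 0.191). Of 17 tested antigen presentation genes 15 had changes above 0 (median 0.28), and H2-Aa was the one called. Among all tested genes, 50.8% had changes above 0 and 0.309% were called higher. These genes are close relatives, so reads may be split between them.

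None of the 32 interferon response genes was called. 26 had log2 changes above 0 (median 0.50), and 10 had an unadjusted p under 0.05, all higher early. Among all tested genes, 50.8% had changes above 0 and 6.46% were higher early at that p. Summed over the list, early libraries had 2383 to 5098 CPM (median 3151). Day 5 libraries other than L86 had 1442 to 2565 CPM, and L86 had 5046. Isg15, a ubiquitin-like interferon-induced protein, was 14.6 to 155 CPM early, 60.4 CPM in L86 and 1.17 to 16.5 CPM in the other day 5 libraries (log2 change 1.98 ± 0.61, adjusted p = 0.134).

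Macrophage marker genes were at higher levels in most early libraries, in cells predicted to be stem cells and progenitors. All 17 tested macrophage markers of 22 had log2 changes above 0 (median 0.78) and none was called. The sum over all 22 markers was 709 to 1881 CPM early (median 1292). On day 5 it was 212 to 329 CPM in L68 to L72, 805 CPM in L86 and 2542 CPM in L66. Hmox1, a haem-degrading enzyme abundant in macrophages that take up red cells, was 49.2 to 371 CPM early, 1.40 to 6.89 CPM in L68 to L72, 30.5 CPM in L86 and 231 CPM in L66. Leaving out the cells with over 0.5% of their counts in these markers, which removed L66 because fewer than 5 of its cells remained, gave 111 called genes, and the median of the 17 tested macrophage markers was then 2.55, against 0.02 over all tested genes. In that comparison Pdzk1ip1 (log2 change 1.78), Aldh2 (1.62), Arpc1b (1.76), Procr (1.22), H2-Aa (2.47) and Tnf (-2.93) were called, and Npm1 was not (-0.56, adjusted p = 0.0567). The marker difference was larger there than before, so the comparison does not show what these markers contributed to the calls.

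Markers of the other cell types gave no called gene. Of 16 tested megakaryocyte markers 3 had log2 changes above 0 (median -0.92), and their early sums outside L89 were 448 to 762 CPM. Medians were 0.81 for monocyte and dendritic cell (7 of 9 above 0), 1.4 for mast cell and basophil (5 of 5) and 0.60 for stromal and endothelial markers (9 of 12). B cell and plasma cell markers had 0.82 (2 of 3). Neutrophil, erythroid, lymphoid priming and T and NK cell medians were -0.13, 0.09, 0.09 and -0.05. The sums ranged widely and overlapped between the groups for neutrophil (350 to 5329 CPM early, 272 to 14832 CPM on day 5, highest in L66), megakaryocyte (448 to 1772 early, 590 to 1765 on day 5), mast cell and basophil (260 to 4135 early, highest in L88, 223 to 979 on day 5) and stromal and endothelial genes (576 to 1481 early, 446 to 816 on day 5). Lymphoid priming genes (191 to 561 CPM early, 148 to 402 on day 5), B cell and plasma cell genes (145 to 789 and 95 to 355) and T and NK cell genes (82.5 to 460 and 121 to 557) overlapped as well. Monocyte and dendritic cell genes were 371 to 1642 CPM early, 198 to 368 CPM on day 5 outside L66, and 893 CPM in L66. Erythroid genes were 1191 to 1581 CPM early, 763 to 1131 CPM in the day 5 libraries other than L86, all below every early library, and 1297 CPM in L86, and the adult globin genes Hba-a1, Hba-a2, Hbb-bs and Hbb-bt were at 0 in every library. The part of cell type markers in the results, macrophage markers included, was not tested.

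Several of the largest increases came from genes with little expression in most libraries, and some from few cells. Pigr, an epithelial receptor that carries antibodies across mucosa, was 2.80 to 384 CPM early, with a median of 4.03, and 0 to 0.536 CPM on day 5. All early libraries lay above all day 5 libraries, but L80 alone reached 384 CPM, and 1 cell held 50.4% of the early counts. Nkx2-1, a transcription factor of lung and thyroid, was 1.79 to 163 CPM early and 0 to 0.443 CPM on day 5, with L80 again the highest and 45.7% of early counts in 1 cell. Their log2 changes of 8.16 ± 1.28 (adjusted p = 0.00518) and 7.75 ± 1.26 (adjusted p = 0.00663) rest on near-zero day 5 values, and without L80 they were 5.85 and 5.64, both still called. Mylk4, a myosin light chain kinase gene, was 1.79 to 130 CPM early and 0.16 to 2.07 CPM on day 5 (log2 change 5.05 ± 1.09, adjusted p = 0.0412), with 54.6% of early counts in 1 cell. Without L80 its change was 2.44 and not called (adjusted p = 0.244).

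Olfr856-ps1, an olfactory receptor pseudogene, was 22.1 to 293 CPM early, with a median of 88.5, and 4.68 to 14.8 CPM on day 5. The groups did not overlap, and the day 1 libraries L83 (293) and L84 (123) with L85 of day 3 (129) were the highest. The log2 change was 3.5 ± 0.50 (adjusted p = 0.00366). It was detected in 44.3% of early and 12.1% of day 5 cells at equal counts. The non-coding transcripts 4930470H14Rik (3.42 ± 0.52) and Gm17644 (2.91 ± 0.49) were highest in the same 3 libraries. Nkain3 (3.83 ± 0.81), Grk1, the rhodopsin kinase gene (2.73 ± 0.61), Pick1 (2.39 ± 0.50) and Bex2 (2.38 ± 0.52) completed the called genes with the largest increases, at medians of 5.64, 15.1, 17.2 and 17.3 CPM early and 0.443, 4.21, 4.59 and 3.57 CPM on day 5. For Nkain3, Grk1 and Pick1 the day 1 library L83 was the highest of all. With 1 library left out at a time, Nkain3 lost its call in 8 of 13 fits. Of 14 fits, calls were lost in 9 for Grk1, 8 for Pick1 and 9 for Bex2.

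**Figure D5:**
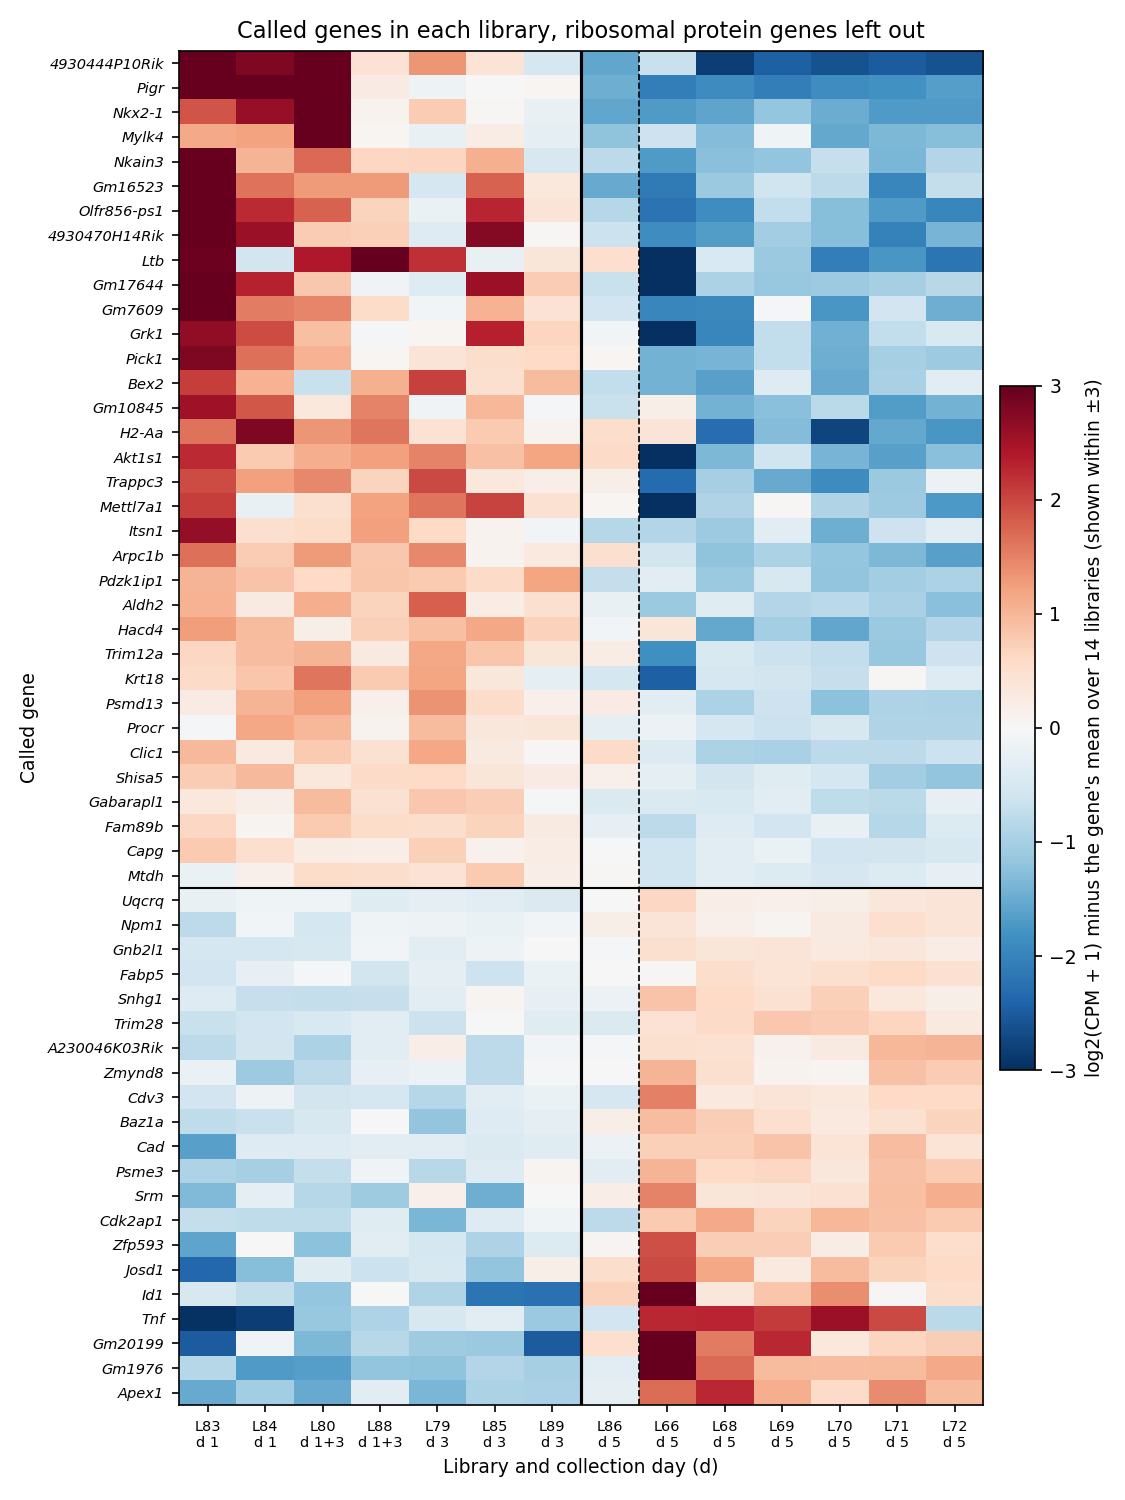
Log2(CPM + 1) of 55 called genes, ribosomal protein genes left out (rows, ordered by log2 change) in each library (columns, early left of the solid line), minus the gene's mean over the 14 libraries. L86, between the solid and dashed lines, lies within the range of the early libraries alone for 16 and within that of the other day 5 libraries alone for 20 of all 59 called genes. The 59 were called with L86 among the day 5 libraries.

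L86 was set beside the ranges of the other libraries in the called genes. Its value lay only within the range of the early libraries for 16 of the 59, only within the range of the other day 5 libraries for 20, within both for 1, and in neither for 22. The 59 were called with L86 among the day 5 libraries, which shapes these counts. Matching shares over all tested genes were not computed, and whether the 22 lay between the ranges or outside them was not counted. With L86 as the only day 5 library, 55 of the 58 called genes that could be tested kept their direction. 1 library gives no spread for day 5, so no count of called genes is given. Restricting day 5 to the 2 libraries of both organs gave 0 called genes (608 at an unadjusted p under 0.05), and 58 of 58 kept their direction. Few differences can pass with 2 libraries, so the 0 does not show equal levels. These libraries were among those that gave the calls, so the kept directions are partly built in. Collection day, library number and organ label cannot be told apart with these libraries.

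The 2 early days were compared with day 5 separately. The 2 day 1 libraries gave 115 called genes (48 higher and 67 lower), of which 24 were among the 59. The 3 day 3 libraries gave none, with 903 at an unadjusted p under 0.05. Pdzk1ip1 was alike on both days, with 213 and 191 CPM in the day 1 libraries and 182, 158 and 241 CPM in the day 3 libraries. Its change was 1.74 for day 1 alone (adjusted p = 0.0153) and 1.69 for day 3 alone (adjusted p = 0.0696). Tnf was 1.83 and 2.14 CPM on day 1 and 14.7, 16.6 and 9.17 CPM on day 3. The difference between days 1 and 3 was not tested. In a single predicted type, tMPP1 cells gave 3 called genes and tMPP2 cells 42, with 1 and 14 of the 59 among them. Ltb, Tnf and Id1 were not called in either type (adjusted p from 0.0683 to 0.598).

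Values in steady state stem cells (iHSC, 12 libraries) and on day 7 (10 libraries) are given beside these as a description, scaled together with the early and day 5 sums. Pdzk1ip1 had medians of 450.3 CPM in the 4 iHSC libraries numbered from L73 and 551 CPM in the 8 earlier ones. In the 9 day 7 libraries L47 to L63 it was 2.78 to 51.2 CPM, and in day 7 library L78 it was 84.7 CPM. Procr had iHSC medians of 114 and 171 CPM, a day 7 median of 16.4 CPM and 74.9 CPM in L78. For Arpc1b, iHSC medians were 147 and 65.1 CPM, day 7 libraries L47 to L63 had a median of 281 CPM and L78 had 879.6 CPM. Srm had iHSC medians of 95.5 and 99.5 CPM and a day 7 median of 429 CPM, and Tnf was at or below 6.40 CPM in every iHSC library.

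The called genes were also set beside library number in the other groups. L78 lay above the median of the other day 7 libraries for 26 of the 34 genes higher early and below it for 23 of the 25 genes lower early. The 4 iHSC libraries from L73 had a higher median than the 8 before for 23 of the 34, and a lower one for 15 of the 25. These counts describe the numbering, and its part in the early changes was not tested. The matching shares over all tested genes were not computed, so the counts cannot be called particular to these genes.

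The remaining lists had no called member. Cell cycle brakes (19 tested, median 0.27), p53 and DNA damage genes (22, median 0.45), Notch signalling (10, median 0.39), cytokine receptors (30, median 0.12) and homing and adhesion genes (25, median 0.11) had medians above 0. Heat shock genes (16, median -0.23), amino acid response genes (18, median -0.24) and cholesterol synthesis genes (20, median -0.04) had medians below 0. Unfolded protein response (18, median 0.07) and antioxidant genes (21, median 0.07) were near the median of all genes. Hspa1b, an inducible chaperone gene, was 0.31 to 10.1 CPM early and 37.1 to 123 CPM in L68 to L71, against 1.01 CPM in L72, 5.85 CPM in L66 and 6.97 CPM in L86 (log2 change -3.61 ± 0.88, adjusted p = 0.0665). It has a near-identical copy, Hspa1a (-2.82 ± 0.85, adjusted p = 0.127), so both values are uncertain. Txn1, thioredoxin, missed the threshold although its groups did not overlap (log2 change -0.42 ± 0.10, adjusted p = 0.0536).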

How the data were processed

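The deposited table, made by the authors, holds raw whole-number counts of each gene in each cell (23154 genes, 2879 cells). Per the labels the libraries were made with a modified Smart-seq2 protocol for 3' ends of mRNA. Per the submitters' processing notes, TopHat and HTSeq were used with build mm10, without versions; whether reads or molecules were counted, and whether strand was used, is not given in the sources used here. The deposited annotation gives each cell's origin and predicted type. No 2 analysed cells had identical counts, and doublets were not called.

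The cells, gene lists (31 lists, 644 names) and comparisons were chosen with earlier results of these data known. Counts were summed per library with at least 5 cells and tested with edgeR 4.0.16 in R 4.3.3 (filterByExpr, TMM, quasi-likelihood F test, two-sided, Benjamini-Hochberg adjusted p under 0.05 called). The test was also run on counts simulated from the gene means and spread of these libraries. The simulation held no organ or outlying-library differences, so it is no check against those. Shares and depth were compared with exact permutation tests over libraries (python 3.11.15, numpy 2.4.6). CPM is per 1000000 counts. For detection at equal depth every cell was thinned to 20000 counts. DESeq2 1.42.0 and limma 3.58.1 were alternatives. The library is the replicate; intervals for counting error are not given because no molecular identifiers were reported. Positions are from GENCODE M21, and promoter sequences from RefSeq.

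Genes named are the 10 called genes with the largest change and the 6 with the smallest p each way, up to 4 called members of each list, up to 2 members of lists without calls, and Procr, Mecom, Hlf and Fgd5. The first 2 of these had to be counted in more than 50% of libraries on the side where they were higher, and left out predicted transcripts and ribosomal protein genes. Predicted transcripts, ribosomal protein genes, Capg, Gabarapl1, Clic1, Shisa5, Nr4a1, Mki67, H2-Ab1, H2-Eb1, Slamf1 and Vwf were named after their values were seen.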

Additional observations from a re-analysis of the deposited data

Results flagged for a closer look

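In all, 80 groups of 7 libraries were examined (32 genes, 6 type shares and 2 measures of depth, in each arm). Of these, 19 had a highest or lowest library whose gap to the next exceeded Dixon's 95% critical value. Values were not transformed, most genes were chosen by their change or p, and groups share libraries. No rate from chance can therefore be set beside the 19. Early library L80 was far above the others for Pigr (384 CPM), Nkx2-1 (163 CPM) and Mylk4 (130 CPM). Early library L83, with 8 cells, was high for Olfr856-ps1 (293 CPM), Pick1 (82.2 CPM) and Nkain3 (31.1 CPM) and low for Cad (17.4 CPM). L79 was high for Aldh2 (506 CPM), L84 for H2-Aa (451 CPM), and L88 for Apex1 (1.24 CPM) and for its tMPP3 share (3.85%, the others at 0%).

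On day 5, L66, with 6 cells, was high for Id1 (796 CPM), Zfp593 (167 CPM), Josd1 (93.6 CPM) and its tMPP3 share (83.3%). L86 was high for Arpc1b (444 CPM) and Pick1 (11.4 CPM) and low for Cdk2ap1 (51.7 CPM). L69 was high for Nkx2-1 (0.443 CPM). What set these libraries apart was not tested.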

How the results depend on the processing

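The tHSC and tMPP1 shares and both measures of depth kept their direction and their side of the threshold in all alternatives but one, the libraries of both organs alone (7 against 2). There the differences were 7.61 and 18.2 points, -108812 counts and -1278 genes per cell, and none passed; with 36 regroupings 1 share at the smallest p (0.0278) cannot pass after adjustment. With each library left out in turn, the difference in share ran from 6.86 to 8.64 points for tHSC, 20.2 to 24.6 for tMPP1, -16.5 to -4.34 for tMPP2, -13.6 to 0.318 for tMPP3, -2.17 to 0.605 for tMPP4 and -12.1 to -5.05 for tMPP5. With at least 10 cells per library the tMPP3 and tMPP4 differences turned to 0.41 and 1.28 points, and between libraries of both organs tMPP4 turned to 1.94; none passed the test in either direction.

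The counts of called genes moved most. Against 59 called genes (34 higher, 25 lower), the numbers were 367 (232, 135) with DESeq2, 396 (232, 164) with limma voom, 101 (64, 37) without a filter and 196 (113, 83) with at least 10 cells per library. They were 115 (48, 67) for day 1 alone, 0 (0, 0) for day 3 alone, 10 (9, 1) without pooled-day libraries, 0 (0, 0) for libraries of both organs, 3 (3, 0) without spleen libraries, 3 (1, 2) in tMPP1, 42 (31, 11) in tMPP2, 111 (71, 40) without macrophage-rich cells and 5 (5, 0) with day 7 and iHSC sums in the fit. With DESeq2's size factors 13 were lower, with library totals 54 higher and 14 lower, with thinned cells 12 lower, and with limma on mean log values 19 higher. Chosen after the data were seen, leaving out L66 and L86 gave 368 (239, 129), and leaving out L66 and L80 97 (74, 23). The fit with L86 as the only day 5 library was also chosen then, and gives log2 changes alone. Each library left out in turn gave 9 to 192 called (9 to 123 higher, 0 to 72 lower). 50 of the 59 calls were lost in at least 1 of these. The cause of these moves was not tested.

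Some single genes changed sign without passing the test. Against L86 alone the log2 changes were 0.18 for Cdk2ap1, 0.0042 for Trim28, 1.94 for Atf3, 0.94 for Hspa1a, -0.0635 for Car2, 0.0184 for Atf4, -0.15 for Gabarap, 2.92 for Btg2 and -0.0798 for Acadm. In tMPP1 cells they were -0.41 for Bex2, 0.16 for Dut and -0.29 for Mecom, in tMPP2 cells -0.0814 for Acadm, for day 3 alone -2.53 for Hdc and for day 1 alone -0.0066 for Fgd5. No paired analysis was possible because the labels give no replicate numbers shared between early and day 5 libraries. With 3432 regroupings of 7 against 7 libraries the smallest p was 0.000583; depth of single cells limits genes under a few CPM.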
